A study of Homo sapiens with 18 samples.

Results

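The immediate early transcription factor genes FOS, FOSB, FOSL1, FOSL2, EGR1, EGR2, EGR3 and ATF3 were followed in newly made polyadenylated RNA of MDA-MB-453, an established human breast cancer line of luminal type. The 8 genes were listed by name, with earlier results of these data known, and the intervals of each were summed. The table of 12755 genes held 5 of them: FOS, FOSL1, FOSL2, EGR1 and ATF3. FOSB, EGR2 and EGR3 had no interval and were not analysed here. The cells were treated for 3 hours with JQ1-VHL, a compound that links the BET bromodomain ligand JQ1 to a ligand of the VHL ubiquitin ligase and so causes the degradation of BET proteins, or with DMSO as vehicle. All cells also received 0.1 mM 4-thiouridine (4sU) for the last 60 min, and the sample titles call the compound dBET. Total, nuclear and cytoplasmic RNA gave 3 libraries each per treatment, 18 in all. The concentration of JQ1-VHL, and whether replicates were separate cultures, are not given in the sources used here. The p-values then speak only of the spread among these libraries, which may be technical.

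As background, immediate early genes are transcribed within minutes of a signal without the need for new protein. FOS, FOSB, FOSL1 and FOSL2 encode the FOS proteins, which pair with JUN proteins to form the AP-1 transcription factor. EGR1, EGR2 and EGR3 encode zinc finger factors that bind GC-rich sites, and ATF3 is a stress-responsive member of the ATF and CREB family. Signalling through ERK and related kinases reaches many of these genes through serum response factor (SRF), which binds the CArG box, and through CREB, which binds the cyclic AMP response element. Their RNAs are short-lived. BET proteins help RNA polymerase II to leave the promoter and elongate.

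The promoters of the 3 genes that the results turn on are shown because FOS and EGR1 were on the high side and FOSL2 on the low side under JQ1-VHL. Each line holds the 250 bases before the start of the gene in RefSeq (GRCh38.p14), 5′ to 3′ on the plus strand. In GENCODE 29 FOSL2 begins at 28392448, so its whole window lies inside the gene as annotated there. The FOS window ends past the GENCODE 29 start of FOS, 75278774. Capitals mark matches on either strand to the CArG box, to TGACG (the core of the cyclic AMP response element, read as CGTCA on the other strand) and to TATAAA. No marked match overlaps another.
EGR1, chr5:138465229-138465478: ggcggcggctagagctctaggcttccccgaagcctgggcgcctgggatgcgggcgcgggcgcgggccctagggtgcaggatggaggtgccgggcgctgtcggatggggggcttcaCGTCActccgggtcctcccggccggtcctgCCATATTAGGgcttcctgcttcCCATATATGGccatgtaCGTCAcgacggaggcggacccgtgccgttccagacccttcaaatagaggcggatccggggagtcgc
FOS, chr14:75278578-75278827: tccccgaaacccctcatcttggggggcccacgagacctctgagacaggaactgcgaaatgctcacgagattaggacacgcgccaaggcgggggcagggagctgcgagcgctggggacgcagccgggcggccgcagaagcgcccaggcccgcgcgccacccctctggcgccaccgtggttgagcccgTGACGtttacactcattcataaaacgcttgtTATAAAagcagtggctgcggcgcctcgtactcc
FOSL2, chr2:28392608-28392857: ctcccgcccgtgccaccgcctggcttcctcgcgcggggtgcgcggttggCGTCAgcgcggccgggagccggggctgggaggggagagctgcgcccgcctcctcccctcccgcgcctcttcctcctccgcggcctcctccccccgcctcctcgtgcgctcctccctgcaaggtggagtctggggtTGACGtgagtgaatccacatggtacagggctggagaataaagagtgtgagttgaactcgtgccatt
The EGR1 window held 2 CArG boxes, beginning 105 and 83 bases before the start, and 2 TGACG motifs, at 135 and 66 bases. The FOS window held 1 TGACG motif, 64 bases before the start, and 1 TATAAA motif, 33 bases before it. It held no CArG box, but bases further upstream were not searched, so a CArG box there would be missed. The FOSL2 window held 2 TGACG motifs, at 201 and 66 bases. Of 35116 RefSeq windows of the same length, 1.16% held a CArG box, 21.2% TGACG and 10.7% TATAAA. The AP-1 motif TGANTCA, in 6.57% of all windows, was in none of the 3. The EGR motif GCGNGGGCG, in 8.42% of all windows, had 1 match 198 bases before the start of EGR1, which is not in capitals. Of the 5 genes in the table, 4 matched the RefSeq promoter table, FOSL1 being the other; ATF3 had 2 windows, and of these motifs they held only TATAAA, once.

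In GENCODE 29 (GRCh38), FOS (ENSG00000170345) lies on chromosome 14 at 75278774 to 75282230 and EGR1 (ENSG00000120738) on chromosome 5 at 138465490 to 138469315, both on the plus strand. FOSL2 (ENSG00000075426) lies on chromosome 2 at 28392448 to 28417312 and ATF3 (ENSG00000162772) on chromosome 1 at 212565334 to 212620777, both on the plus strand. FOSL1 (ENSG00000175592) lies on chromosome 11 at 65892049 to 65900573 on the minus strand. The deposited files name GRCh37, so these positions come from the annotation only. FOSL2 overlaps a sense intronic gene, AC104695.3, and an antisense gene, FLJ31356. The strand that was counted is not given in the sources used here, so reads of FOSL2 and of its antisense partner cannot be told apart. No other gene overlaps the other 4. FOS had 2 intervals in the table, EGR1 had 1, FOSL2 had 5, FOSL1 had 2 and ATF3 had 4. What an interval covers is not stated, so levels were not compared between genes. Nor is it stated whether 1 read can count in more than 1 interval. Reads of a gene are sums over its intervals here, and distinct reads may be fewer.

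Each value is a number of reads with a T-to-C change, scaled by a single factor per library that the table's name ties to the ERCC spike-in, and is given in units here. A T-to-C change marks RNA that took up 4sU. The ERCC RNA was added per mass of recovered RNA, so units do not count RNA per cell. The libraries held 1.58 to 6.77 M T-to-C reads, with JQ1-VHL nuclear replicate 3 the shallowest, and 1 read was worth 0.470 to 2.75 units. All 11 luminal markers listed were in the table, KRT8 and FOXA1 among them, and their summed value was 7476 to 53767 units per library under JQ1-VHL and 10584 to 135412 under DMSO. Of 12 markers of other lineages, COL1A1 and ALB were in the table, with a summed value of 99.8 to 1045 units under JQ1-VHL and 105 to 1069 under DMSO. On the ERCC scale 2, 6 and 2 luminal markers were called lower under JQ1-VHL in total, nuclear and cytoplasmic RNA and 0 higher, where 2.79%, 33.7% and 3.67% of all tested genes were called lower; neither of COL1A1 and ALB was called. After rescaling 3, 4 and 0 luminal markers were higher and 6, 5 and 5 lower in these fractions, and COL1A1 was called higher in total and in cytoplasmic RNA. Then 12.2%, 18.2% and 14.8% of all tested genes were called higher and 18.3%, 12.5% and 15.9% lower. The part of these markers in the results was not tested. The median log2 change of all 10191 tested genes, JQ1-VHL over DMSO, was -0.49 in total, -1.82 in nuclear and -0.02 in cytoplasmic RNA. Each result is therefore given on the ERCC scale and again after rescaling, in which each library was divided by a factor that sets its typical gene level (median-of-ratios). After rescaling those medians were -0.19, -0.01 and 0.05. Log2 changes are on log2(value + 1), given as estimate ± SE, with adjusted p from limma over all tested genes unless another test is named. A gene was called at an adjusted p under 0.05.

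The 5 genes fell into 3 patterns. The means of FOS and EGR1 were higher under JQ1-VHL than under DMSO in each fraction, with the call depending on fraction and scale. On the ERCC scale limma called EGR1 in cytoplasmic RNA only and FOS in no fraction, and the nuclear groups of both overlapped. FOSL2 was lower under JQ1-VHL in each fraction, down to no read in the cytoplasm. ATF3 did not pass the test in any comparison, and FOSL1 was too low to test.

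**Figure D1:**
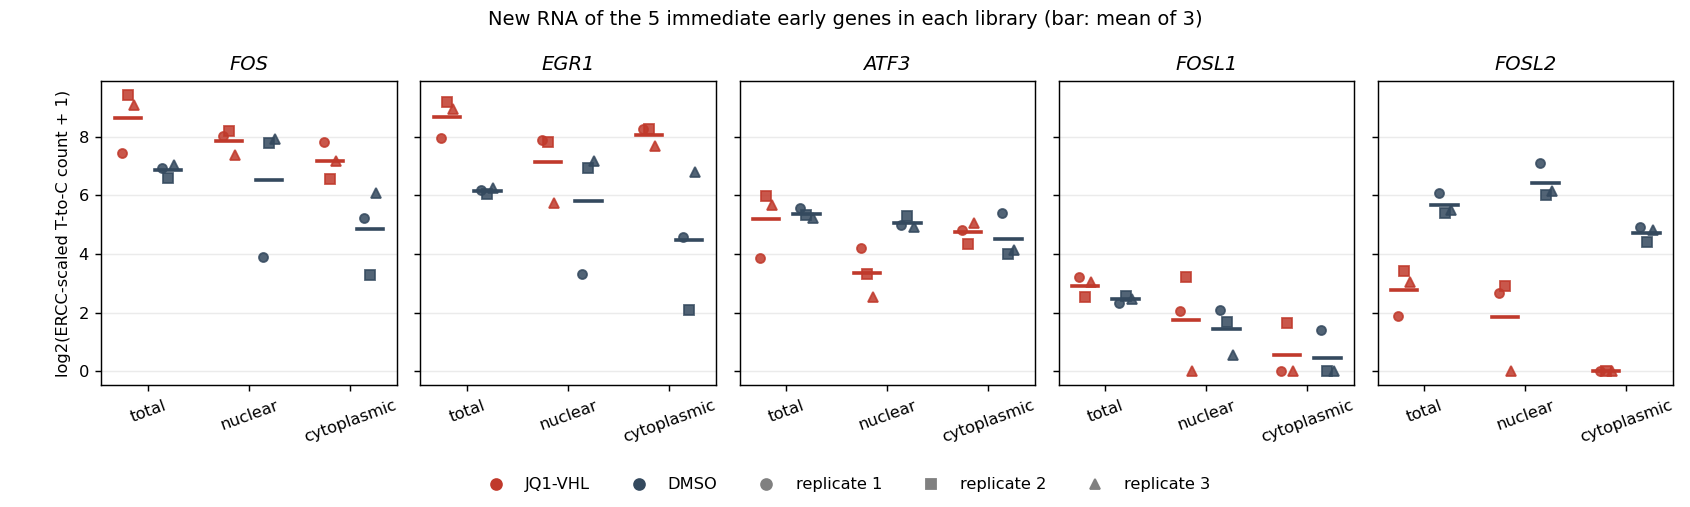
New RNA of each gene in each library, as log2(ERCC-scaled T-to-C count + 1), by fraction; red points are JQ1-VHL and dark points DMSO, the marker gives the replicate number, and bars are means of 3. All FOSL2 points of JQ1-VHL lie below all those of DMSO, and DMSO nuclear replicate 1 lies far below its partners for FOS and EGR1.

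In total RNA, EGR1, a zinc finger factor induced by growth signals, held 247, 576 and 491 units in JQ1-VHL replicates 1, 2 and 3, against 72.5, 65.2 and 74.5 units in DMSO. The lowest JQ1-VHL library was above the highest DMSO library, and in same-numbered pairs JQ1-VHL over DMSO was 3.41, 8.84 and 6.58. FOS, the founding AP-1 subunit, held 172, 687 and 540 units under JQ1-VHL, against 121, 95.3 and 132 units under DMSO. FOS, too, did not overlap between treatments on the ERCC scale, and JQ1-VHL replicate 1 was the low one for both genes. After rescaling, FOS held 134, 705 and 529 under JQ1-VHL, against 37.7, 121 and 139 under DMSO. EGR1 then held 193, 592 and 481 under JQ1-VHL, against 22.6, 83.1 and 79.0 under DMSO. On that scale replicate 1 was the low one for both genes under both treatments. How many of all genes did not overlap was not counted in any fraction, so non-overlap is a description only. On the ERCC scale the pair ratios of FOS were 1.42, 7.21 and 4.10.

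FOSL2, a FOS family subunit that takes part in AP-1 in many epithelial cells, held 2.75, 9.63 and 7.20 units in JQ1-VHL total RNA (2 to 8 reads), against 66.5, 41.4 and 44.1 units in DMSO (33 to 66 reads). Each JQ1-VHL library was far below each DMSO library. ATF3 held 13.7, 62.6 and 50.4 units under JQ1-VHL, against 46.3, 39.5 and 36.5 units under DMSO, so its groups overlapped. FOSL1, the other FOS family gene in the table, held 8.25, 4.81 and 7.20 units under JQ1-VHL, against 4.03, 5.01 and 4.56 units under DMSO. Its reads numbered 2 to 8 per library, too few to show a difference.

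On the ERCC scale 0 of the 4 tested genes were called in total RNA by limma, against a background of 0.245% of all tested genes called higher and 2.79% called lower; at an unadjusted p under 0.05 there were 3. The log2 change was 2.53 ± 0.91 for EGR1 (adjusted p = 0.101), 1.79 ± 0.90 for FOS (adjusted p = 0.285), -2.87 ± 1.13 for FOSL2 (adjusted p = 0.138) and -0.19 ± 1.07 for ATF3 (adjusted p = 0.978). edgeR with its own scaling (TMM) and DESeq2 called EGR1, FOS and FOSL2, among 3809 and 4223 of 10191 genes called in either direction. On the ERCC scale edgeR called none of the 4, with 245 genes called. All groups share 1 estimate of the spread. On the ERCC scale limma took it for these genes from the trend over all genes, not from each gene's own spread. Without DMSO cytoplasmic replicate 2 EGR1 was called in total RNA (adjusted p = 0.0346). The adjusted p of FOS and FOSL2 fell too (0.133 and 0.0774), without a call. After rescaling, EGR1 rose by 2.82 ± 0.88 (adjusted p = 0.0232) and FOSL2 fell by 2.55 ± 0.86 (adjusted p = 0.0328), against backgrounds of 12.2% called higher and 18.3% called lower. FOS was at 2.08 ± 0.94 (adjusted p = 0.0983), with overlapping groups on that scale, and ATF3 at 0.10 ± 0.76 (adjusted p = 0.932). These 2 calls were thin: leaving out JQ1-VHL total replicate 3 ended both, EGR1 (adjusted p = 0.0808) and FOSL2 (adjusted p = 0.0702). Leaving out JQ1-VHL replicate 2 or DMSO replicate 1 ended the EGR1 call (adjusted p = 0.0869 and 0.109). Leaving out JQ1-VHL replicate 1, DMSO replicate 2 or DMSO replicate 3 ended that of FOSL2 (adjusted p = 0.114, 0.106 and 0.0932). Without DMSO nuclear replicate 1, which stood apart as described next, rescaled FOS was called in total RNA (adjusted p = 0.0146).

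In nuclear RNA, FOS held 258, 291 and 166 units under JQ1-VHL, against 13.9, 218 and 239 units under DMSO. EGR1 held 236, 224 and 52.3 units under JQ1-VHL, against 9.01, 121 and 142 units under DMSO. The groups of both genes overlapped on the ERCC scale. DMSO nuclear replicate 1 stood apart for both: it held 17 FOS reads and 11 EGR1 reads, while the other DMSO nuclear libraries held 388 and 509 FOS reads and 215 and 302 EGR1 reads. That library had the most reads of the nuclear libraries (5.93 M), and it was not low for FOSL2 (166 reads, against 114 and 148 in the other DMSO nuclear libraries). The pair ratios of JQ1-VHL over DMSO were therefore 18.5, 1.33 and 0.693 for FOS and 26.2, 1.86 and 0.368 for EGR1.

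FOSL2 held 5.32, 6.46 and 0 units in JQ1-VHL nuclear RNA, against 136, 64.0 and 69.6 units in DMSO. The library with no FOSL2 read was the shallowest, JQ1-VHL nuclear replicate 3. ATF3 held 17.6, 9.04 and 4.75 units under JQ1-VHL, against 31.1, 38.2 and 29.2 units under DMSO, with no overlap. FOSL1 lay between 0 and 8.39 units under JQ1-VHL and between 0.470 and 3.28 units under DMSO.

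On the ERCC scale 1 of the 4 tested genes was called in nuclear RNA: FOSL2 fell by 4.57 ± 1.13 (adjusted p = 0.00197). Of all tested genes 33.7% were called lower and 0.177% higher, and the FOSL2 estimate was the 126th lowest of 10191. Without JQ1-VHL nuclear replicate 3 FOSL2 was at -3.64 (adjusted p = 0.0697). FOS was at 1.34 ± 0.90 (adjusted p = 0.204), EGR1 at 1.34 ± 0.91 (adjusted p = 0.209) and ATF3 at -1.72 ± 1.07 (adjusted p = 0.172), the last close to the median of all genes. FOS and EGR1 were the 66th and 62nd highest of 10191 on a scale on which most genes were lower. Without DMSO nuclear replicate 1 these changes were 0.021 for FOS (adjusted p = 0.988) and 0.10 for EGR1 (adjusted p = 0.939). After rescaling FOS rose by 3.17 ± 0.94 (adjusted p = 0.0169), EGR1 rose by 3.15 ± 0.88 (adjusted p = 0.0119) and FOSL2 fell by 3.63 ± 0.86 (adjusted p = 0.00442), against backgrounds of 18.2% called higher and 12.5% called lower. ATF3 was at 0.03 ± 0.76 (adjusted p = 0.981). Without DMSO nuclear replicate 1 the FOS change dropped to 1.53 (adjusted p = 0.100) and that of EGR1 to 1.60 (adjusted p = 0.0605), so both calls rested on that library; the FOS call also ended without JQ1-VHL nuclear replicate 3 (adjusted p = 0.0675). Rescaled FOS values were 553, 452 and 990 under JQ1-VHL, against 6.23, 198 and 239 under DMSO, with pair ratios of 88.8, 2.29 and 4.15. Rescaled EGR1 values were 505, 349 and 312 under JQ1-VHL, against 4.03, 110 and 142 under DMSO. Neither gene overlapped between treatments on that scale.

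In cytoplasmic RNA, EGR1 held 306, 305 and 207 units under JQ1-VHL, against 23.1, 3.31 and 110 units under DMSO. FOS held 224, 92.5 and 144 units under JQ1-VHL, against 36.3, 8.84 and 66.1 units under DMSO. Neither gene overlapped between treatments, although DMSO replicates spread widely, and the share of all genes without overlap was not counted. The pair ratios were 13.2, 92.2 and 1.88 for EGR1 and 6.17, 10.5 and 2.18 for FOS, and the DMSO library behind the ratio of 92.2 held 6 EGR1 reads.

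FOSL2 had no read in any JQ1-VHL cytoplasmic library, against 29.7, 20.4 and 27.5 units in DMSO (18, 37 and 10 reads, summed over intervals). In DMSO replicates 1, 2 and 3, intervals 1 and 2 each held 2, 6 and 2 reads, and interval 5 held 7, 11 and 0. Whether the same reads were counted in more than 1 interval was not tested. With a floor of 3 reads in each library (a mean of 5.64 units), the FOSL2 mean was at least 4.59-fold lower under JQ1-VHL. The floor covers counting error only and takes summed reads as distinct, so the true bound may be smaller. ATF3 held 27.2, 19.4 and 32.1 units under JQ1-VHL, against 41.3, 14.9 and 16.5 units under DMSO, with overlap. FOSL1 held at most 1 read in any cytoplasmic library.

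On the ERCC scale 2 of the 4 tested genes were called in cytoplasmic RNA, against backgrounds of 0.226% called higher and 3.67% called lower. EGR1 rose by 3.57 ± 0.91 (adjusted p = 0.00842), the 17th highest change of 10191. FOSL2 fell, with a fitted change of -4.73 ± 1.13 (adjusted p = 0.00382). Its size and its call depend on the added 1: with 10 added, FOSL2 was at -1.83 (adjusted p = 0.106). FOS was at 2.32 ± 0.90 (adjusted p = 0.138) and ATF3 at 0.23 ± 1.07 (adjusted p = 0.967). Without DMSO cytoplasmic replicate 2 EGR1 was at 2.38 (adjusted p = 0.0512), and edgeR on the ERCC scale did not call it (2.64, adjusted p = 0.0906). After rescaling EGR1 rose by 3.69 ± 0.88 (adjusted p = 0.00495), and FOSL2 fell (-4.49 ± 0.86, adjusted p = 0.00131), against backgrounds of 14.8% called higher and 15.9% called lower; both stayed called without any 1 of the 6 cytoplasmic libraries. Rescaled FOS was at 2.39 ± 0.94 (adjusted p = 0.0607), and it passed with the replicate block (adjusted p = 0.0271) or without JQ1-VHL cytoplasmic replicate 2 (adjusted p = 0.0453), DMSO nuclear replicate 1 (adjusted p = 0.00625) or DMSO nuclear replicate 3 (adjusted p = 0.0498). edgeR with TMM scaling and DESeq2 called FOS as well, among 2987 and 3625 genes called in either direction. Rescaled FOS values were 168, 60.9 and 190 under JQ1-VHL, against 20.1, 26.2 and 23.1 under DMSO.

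**Figure D2:**
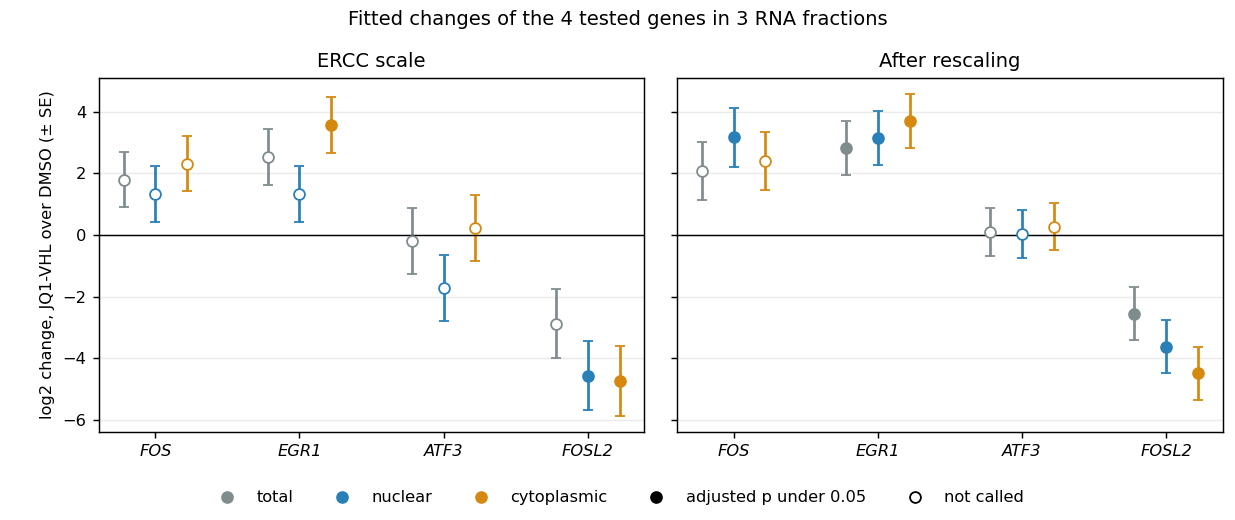
Log2 change of JQ1-VHL over DMSO for the 4 tested genes in 3 fractions, with SE bars from limma, on the ERCC scale and after rescaling; filled points have an adjusted p under 0.05. EGR1 and FOS lie above 0 and FOSL2 below 0 throughout, and ATF3 moves to 0.03 in nuclear RNA after rescaling.

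The effect of JQ1-VHL was then compared between nucleus and cytoplasm. The nuclear minus the cytoplasmic log2 change was -2.23 ± 1.29 for EGR1 (adjusted p = 0.344), -0.98 ± 1.27 for FOS (adjusted p = 0.591), 0.17 ± 1.59 for FOSL2 (adjusted p = 0.946) and -1.95 ± 1.51 for ATF3 (adjusted p = 0.413). On the ERCC scale limma called 0 of the 4 genes and 0% of all tested genes, with 1564 of all genes and 0 of the 4 at an unadjusted p under 0.05. edgeR and DESeq2 called none of the 4 either. After rescaling 2.83% of all genes and 0 of the 4 were called, and the values were -0.55 ± 1.24 for EGR1 (adjusted p = 0.853), 0.77 ± 1.33 for FOS (adjusted p = 0.796), 0.87 ± 1.22 for FOSL2 (adjusted p = 0.742) and -0.24 ± 1.08 for ATF3 (adjusted p = 0.933). With SEs above 1, a difference of several-fold between the compartments was not detectable.

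The compartments themselves were compared within each treatment. Under JQ1-VHL, nuclear RNA held 238 ± 64.7 FOS units and cytoplasmic RNA 153 ± 66.3 (SD, n = 3 each), and EGR1 held 171 ± 103 units in nuclear and 273 ± 57.1 units in cytoplasmic RNA. Under DMSO, nuclear RNA held 157 ± 124 FOS units and cytoplasmic RNA 37.1 ± 28.6, and EGR1 held 90.6 ± 71.4 units in nuclear and 45.5 ± 56.8 units in cytoplasmic RNA. limma on ERCC-scaled values called 0 of the 4 genes under JQ1-VHL, where 31.8% of all genes were called. Under DMSO it called 0 of the 4, where 20.6% were called. None of the 4 had an unadjusted p under 0.05 in limma, while 4163 of all genes did under JQ1-VHL and 3454 under DMSO. edgeR with TMM scaling and DESeq2 called 2 of the 4 under each treatment, and edgeR on the ERCC scale none. Among all 10191 tested genes, edgeR with TMM called 6427 under JQ1-VHL and 6084 under DMSO. DESeq2 called 6891 and 6389, and edgeR on the ERCC scale 3015 and 1987. After rescaling, nuclear over cytoplasmic RNA was higher under JQ1-VHL for FOS (2.32 ± 0.94, adjusted p = 0.0384) and FOSL2 (2.37 ± 0.86, adjusted p = 0.0227), against 64.7% of all genes called in either direction; FOSL2 had no cytoplasmic read there. EGR1 was at 0.71 ± 0.88 (adjusted p = 0.490). Leaving out any 1 of the 6 libraries ended the FOS call, with adjusted p of 0.0501 to 0.150. The FOSL2 call ended without JQ1-VHL nuclear replicate 1 or 2. After rescaling under DMSO, 0 of the 4 were called by limma, against 56.7% of all genes. Without DMSO nuclear replicate 1 both FOS (3.18, adjusted p = 0.000550) and EGR1 (2.79, adjusted p = 0.000743) were called higher in the nucleus.

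The order of the group means differed between genes. For FOS the highest mean was 466 ± 265 units in JQ1-VHL total RNA and the lowest 37.1 ± 28.6 units in DMSO cytoplasmic RNA. Of neighbours in that order, DMSO total and DMSO cytoplasmic RNA alone had ranges that did not overlap. For EGR1 the 3 JQ1-VHL groups came first, at 438 ± 171 units in total, 273 ± 57.1 in cytoplasmic and 171 ± 103 in nuclear RNA, and every pair of neighbours overlapped. For FOSL2 the 9 JQ1-VHL libraries (0 to 9.63 units) all lay below the 9 DMSO libraries (20.4 to 136 units). Among its DMSO groups the nucleus had the highest mean, 89.8 ± 40.0 units, then total RNA with 50.6 ± 13.8 and the cytoplasm with 25.9 ± 4.86. For ATF3 the groups ran between 10.4 ± 6.52 units in JQ1-VHL nuclear RNA and 42.2 ± 25.4 in JQ1-VHL total RNA, and every pair of neighbours overlapped.

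FOS took a larger share of the FOS family reads in each JQ1-VHL library than in any DMSO library of the same fraction. Within a library, the share of FOS in the summed reads of FOS, FOSL1 and FOSL2 needs no scale factor. It is a share of reads summed over intervals, which may not be distinct, and not of molecules per length. In total RNA the share was 94.0%, 97.9% and 97.4% under JQ1-VHL, against 63.2%, 67.3% and 73.0% under DMSO. In nuclear RNA it was 96.8%, 95.1% and 100% under JQ1-VHL, against 9.09%, 76.7% and 77.4% under DMSO. In cytoplasmic RNA it was 100%, 97.7% and 100% under JQ1-VHL (44 to 107 reads), against 53.7%, 30.2% and 70.6% under DMSO (34 to 53 reads). The DMSO libraries spread most in the nucleus, where replicate 1 was low. The means were 96.4% ± 2.15 and 67.8% ± 4.94 in total, 97.3% ± 2.47 and 54.4% ± 39.2 in nuclear, and 99.2% ± 1.31 and 51.5% ± 20.3 in cytoplasmic RNA (JQ1-VHL and DMSO, SD, n = 3 each). Taken as a mean over each gene's intervals in place of a sum, the difference was 14.96 points in total, 32.3 in nuclear and 29.1 in cytoplasmic RNA, against 28.6, 42.9 and 47.8 points by sums. The exact two-sided permutation p was 0.1 in each fraction, and with 3 libraries a side none smaller is possible. With same-numbered libraries kept as pairs, an exact sign-flip test gave p = 0.25 in each fraction, the smallest that 3 pairs allow. The FOSL2 share averaged 1.39% under JQ1-VHL against 29.5% under DMSO in the total libraries. It averaged 1.37% under JQ1-VHL against 44.6% under DMSO in the nucleus, and 0% under JQ1-VHL against 47.7% under DMSO in the cytoplasm.

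**Figure D3:**
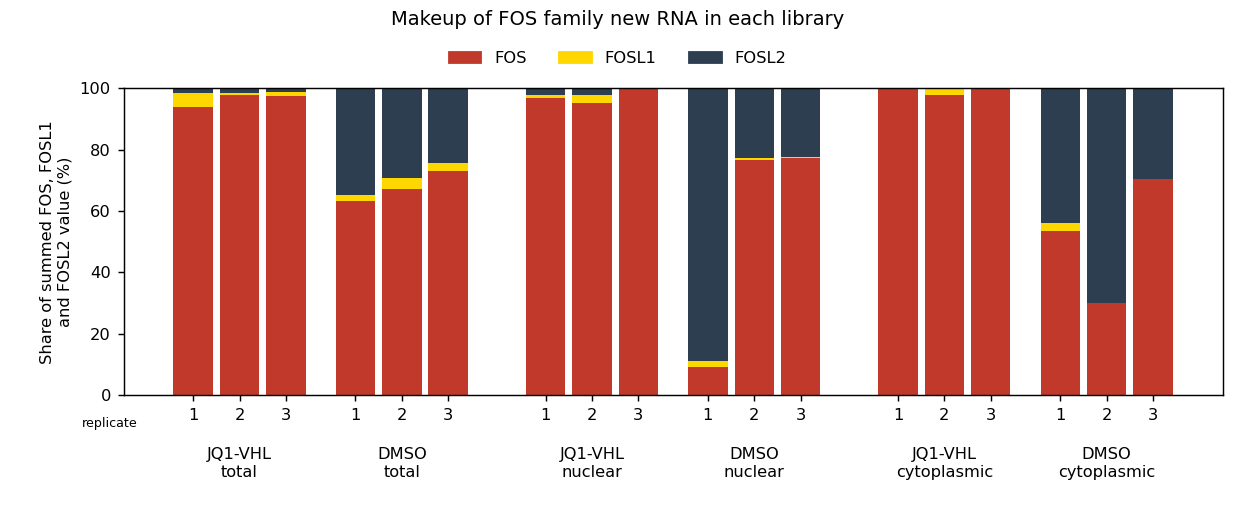
Share of FOS, FOSL1 and FOSL2 in their summed value (%) in each of the 18 libraries, by fraction, with JQ1-VHL left of DMSO. FOS takes 94.0% or more in each JQ1-VHL library and at most 77.4% in each DMSO library, with DMSO nuclear replicate 1 at 9.09%.

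The mean of each of the 5 FOSL2 intervals was lower under JQ1-VHL in each fraction. In total RNA interval 1 overlapped between treatments, at 2.80 ± 3.86 units under JQ1-VHL and 5.04 ± 1.17 units under DMSO, with JQ1-VHL replicate 3 the highest library at 7.20 units. In nuclear RNA interval 5 averaged 2.43 ± 2.60 units under JQ1-VHL and 60.6 ± 35.4 units under DMSO (SD, n = 3 each), and interval 1 averaged 0.608 ± 0.649 units under JQ1-VHL and 5.67 ± 1.20 units under DMSO. Interval 5 took 65.7% of the FOSL2 reads in DMSO nuclear RNA and 27.7% in DMSO cytoplasmic RNA, while the other 4 were each a larger share of the cytoplasmic than of the nuclear reads. In the cytoplasm the JQ1-VHL libraries had no read in any interval, and interval 5 averaged 5.88 ± 5.78 units under DMSO. FOS had 2 intervals. Interval 1 over interval 2 was 1.66, 1.63 and 1.21 in JQ1-VHL nuclear RNA and 0.889, 1.52 and 1.30 in DMSO nuclear RNA. In JQ1-VHL cytoplasmic RNA that ratio was 1.06, 1.05 and 0.943, and in DMSO cytoplasmic RNA, with few reads, it was 1.00, 0.600 and 2.00. These interval values were not tested.

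**Figure D4:**
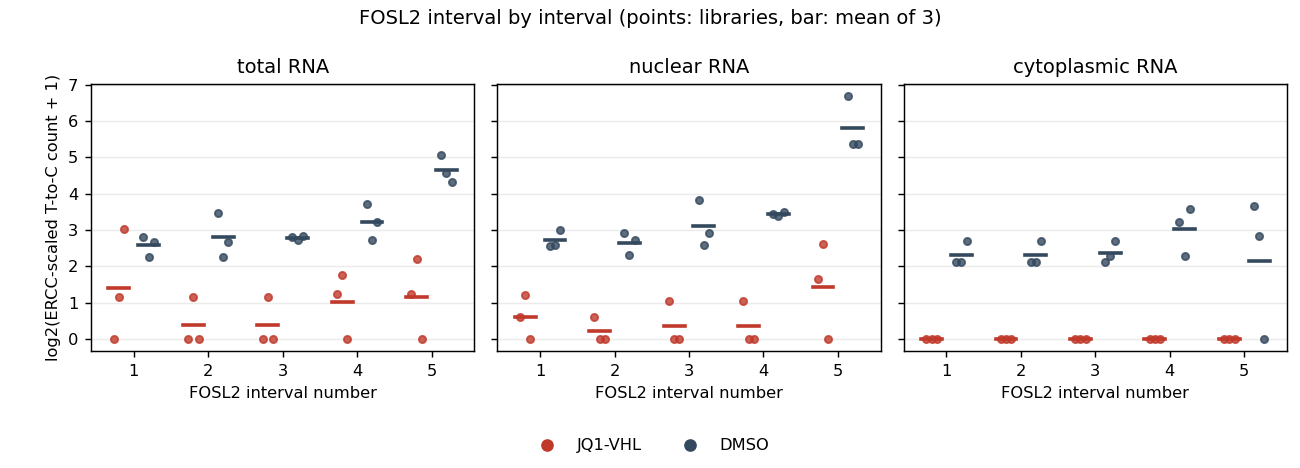
FOSL2 by interval number as log2(ERCC-scaled T-to-C count + 1), by fraction; points are libraries, bars means of 3, red JQ1-VHL and dark DMSO. Interval 5 is the highest in DMSO nuclear RNA (60.6 units on average), and JQ1-VHL cytoplasmic points are all at 0.

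FOS and EGR1 followed each other across the 18 libraries. On rescaled log2 values Pearson's r between them was 0.92, and each was the other's closest gene among all tested. With any 1 library left out r was 0.891 to 0.950, the lowest without DMSO nuclear replicate 1. The libraries share the group differences and the rescaling, so r is given as a description. The next closest genes were GARIN1A (0.85) and ERP29 (0.85) for FOS, and MEIOB (0.85) and C11orf80 (0.84) for EGR1. EGR1 reads per FOS read ranged over 0.315 to 3.30 under JQ1-VHL and 0.375 to 1.67 under DMSO. FOSL2 had an r of -0.34 with FOS and -0.54 with EGR1, and its closest genes were ICOSLG (0.95), EDN2 (0.95) and NR2F2 (0.94). ATF3 had an r of 0.50 with FOS and 0.31 with EGR1, and its closest genes were NDRG1 (0.74), CA9 (0.73) and LRCH3 (0.68).

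Of 37 other immediate early mRNAs listed, 22 were in the table and 19 were tested. On the ERCC scale 4 of the 19 were called lower in total, 9 in nuclear and 4 in cytoplasmic RNA, where 2.79%, 33.7% and 3.67% of all tested genes were. None of the 19 was called higher, as with nearly all genes on that scale (0.245%, 0.177% and 0.226% called higher). Their median log2 change was -2.17, -2.09 and -2.21 in these fractions, against all-gene medians of -0.49, -1.82 and -0.02. PLK2, a polo-like kinase, fell by 3.94 ± 0.83 in total (adjusted p = 0.00196) and fell by 4.76 ± 0.83 in nuclear RNA (adjusted p = 1.15e-05). BTG2, an antiproliferative p53 target, fell by 4.31 ± 1.10 in total (adjusted p = 0.0120) and fell by 4.53 ± 1.10 in nuclear RNA (adjusted p = 0.00173). EDN1, which encodes the vasoactive peptide endothelin, fell by 3.96 ± 1.08 (adjusted p = 0.0153) and TIPARP, a mono-ADP-ribosyltransferase, fell by 3.51 ± 0.96 (adjusted p = 0.0153) in cytoplasmic RNA. After rescaling 10 were lower and 0 higher in total RNA, 11 lower and 0 higher in cytoplasmic RNA, and 3 lower and 2 higher in nuclear RNA; of all genes 18.3%, 15.9% and 12.5% were called lower in total, cytoplasmic and nuclear RNA, and 18.2% higher in nuclear RNA. The 2 were CCN1, a secreted matrix protein gene (1.45 ± 0.41, adjusted p = 0.0135), and MCL1, an antiapoptotic BCL2 family gene (0.86 ± 0.20, adjusted p = 0.00435). The largest change in the list was below that of EGR1 and of FOS in each fraction on both scales. FOS family members, EGR1 and ATF3 were kept out of the list.

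**Figure D5:**
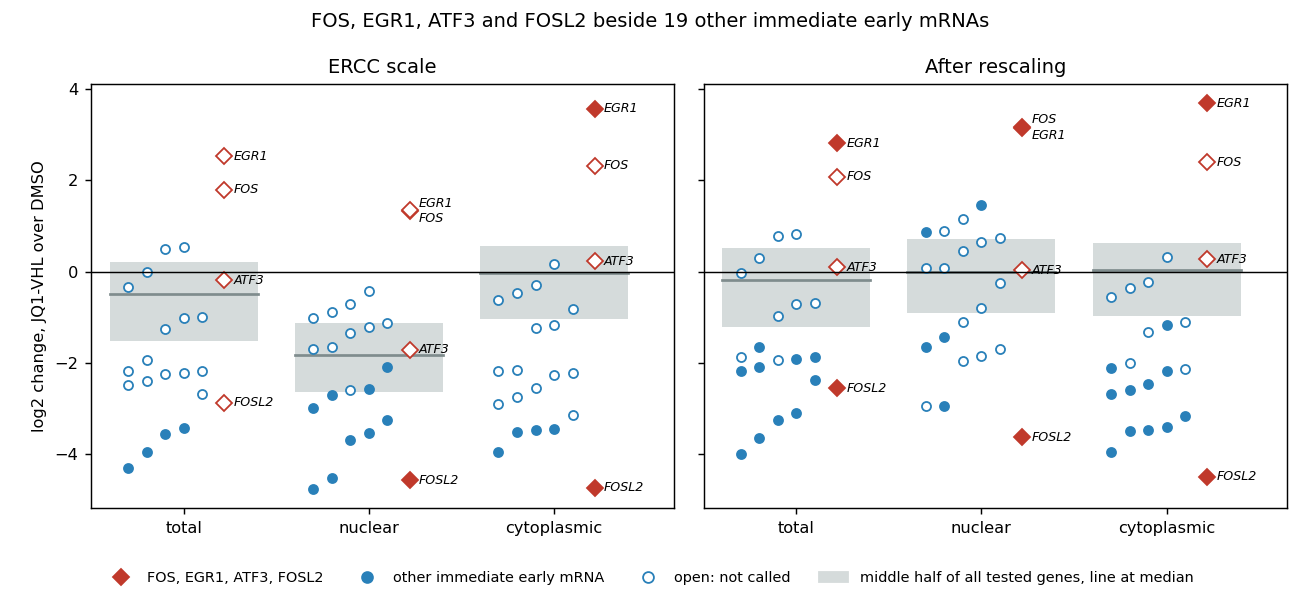
Log2 change of JQ1-VHL over DMSO in 3 fractions on both scales; red diamonds are FOS, EGR1, ATF3 and FOSL2, blue points 19 other immediate early mRNAs, filled where the adjusted p is under 0.05, and grey boxes lie between the quartiles of all tested genes. FOS and EGR1 lie above every blue point, and FOSL2 lies among the lowest.

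Partner and upstream genes were read against the same shares of all genes, of which 33.7% were called lower in nuclear RNA on the ERCC scale. After rescaling 18.3%, 12.5% and 15.9% were called lower in total, nuclear and cytoplasmic RNA, and 12.2%, 18.2% and 14.8% higher. JUN, JUNB and JUND, the AP-1 partners of FOS, had no interval and were not analysed here; neither was NAB1. Of 12 listed AP-1 partners 4 were tested; in nuclear RNA 2 were called lower on the ERCC scale, the small MAF factor MAFF (-3.24 ± 1.11, adjusted p = 0.0194) and JDP2, a JUN dimerization protein that represses AP-1 sites (-3.01 ± 0.87, adjusted p = 0.00670). In cytoplasmic RNA MAFK fell by 3.38 ± 0.99 (adjusted p = 0.0270), and in total RNA 0 of 4 were called. The ERCC-scale median of the 4 was -0.99 in total, -2.54 in nuclear and -1.90 in cytoplasmic RNA. After rescaling JDP2 was lower in total (-1.29 ± 0.38, adjusted p = 0.0176) and nuclear RNA (-1.16 ± 0.38, adjusted p = 0.0277). In cytoplasmic RNA JDP2 (-1.66 ± 0.38, adjusted p = 0.00390) and MAFK (-3.19 ± 0.79, adjusted p = 0.00626) were lower on that scale.

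All 6 listed SRF and ternary complex genes were tested. In nuclear RNA 3 of 6 were called lower, against 33.7% of all genes: SRF itself (-3.06 ± 0.96, adjusted p = 0.0118), its partner ELK4 (-3.42 ± 1.08, adjusted p = 0.0122) and its coactivator MRTFB (-3.07 ± 0.98, adjusted p = 0.0127). In cytoplasmic RNA ELK4 fell by 4.49 ± 1.08 (adjusted p = 0.00421), and in total RNA 0 were called. After rescaling SRF was lower in total (-1.71 ± 0.55, adjusted p = 0.0275) and cytoplasmic RNA (-1.71 ± 0.55, adjusted p = 0.0265) but was not called in nuclear RNA (-1.33 ± 0.55, adjusted p = 0.0744). On that scale MRTFA, another SRF coactivator, was called higher in cytoplasmic RNA (0.71 ± 0.25, adjusted p = 0.0378). ELK4 was lower there (-4.34 ± 0.69, adjusted p = 0.000330). MRTFB was lower after rescaling in total (-1.85 ± 0.42, adjusted p = 0.00439) and nuclear RNA (-1.26 ± 0.42, adjusted p = 0.0286). The list's ERCC-scale median was -1.35, -2.53 and -0.65 in total, nuclear and cytoplasmic RNA. Of 6 listed EGR partners 3 were tested, and in nuclear RNA NAB2, a corepressor that binds EGR1, fell by 2.53 ± 0.90 (adjusted p = 0.0229) and SP3, a GC-box factor, fell by 2.25 ± 0.87 (adjusted p = 0.0352). Their median there was -2.25, and 0 were called in total or cytoplasmic RNA. After rescaling all 3 were called lower in total and in cytoplasmic RNA, and 1 in nuclear RNA. After rescaling NAB2 was lower in total (-1.09 ± 0.26, adjusted p = 0.00571), nuclear (-0.69 ± 0.26, adjusted p = 0.0482) and cytoplasmic RNA (-1.09 ± 0.26, adjusted p = 0.00449).

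Of 19 listed ATF and CREB family genes 16 were tested, and in nuclear RNA 9 were called lower on the ERCC scale, against 33.7% of all genes, with a median of -2.11 beside -1.82 for all genes. CREB3L4, a membrane-bound factor (-3.63 ± 0.87, adjusted p = 0.00158), and CREB3L2 (-3.39 ± 1.14, adjusted p = 0.0169) changed the most. In total and cytoplasmic RNA 0 of 16 were called, with medians of -0.71 and -0.25. Of 20 listed ERK, JNK and p38 kinases and effectors 18 were tested, and 5 were called lower in nuclear RNA (median -1.34), a share below that of all genes. They were led by the kinases RPS6KA4 (-3.47 ± 0.96, adjusted p = 0.00500) and MAPK3, which is ERK1 (-3.46 ± 0.88, adjusted p = 0.00261). In total and cytoplasmic RNA 0 of 18 were called, with medians of -0.07 and 0.41. After rescaling, higher against lower counts were 4 to 2 in total, 5 to 3 in nuclear and 5 to 2 in cytoplasmic RNA for the kinases, and 1 to 3, 3 to 2 and 2 to 4 for the ATF and CREB genes. Of all genes 12.2%, 18.2% and 14.8% were called higher and 18.3%, 12.5% and 15.9% lower in these fractions. The kinases MAP2K1 and MAP2K2, which activate ERK, rose in nuclear RNA on that scale (1.29 ± 0.20, adjusted p = 0.000189, and 1.43 ± 0.22, adjusted p = 0.000171), while MAPK3 (-1.63 ± 0.34, adjusted p = 0.00178) and RPS6KA4 (-1.67 ± 0.37, adjusted p = 0.00256) were lower.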

How the data were processed

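RNA that took up 4sU was read by the T-to-C changes that iodoacetamide treatment leaves in the sequence. Per the labels' protocols, fractions were made with digitonin, ERCC RNA was added per mass of RNA and Drosophila cells were spiked in. The deposited signal values are T-to-C reads per interval that the authors divided by an ERCC factor, per the table's name. Tools listed in the submitters' processing notes, in no stated role, are HISAT2, HTSeq, DESeq2, bcl2fastq and Trimmomatic 0.39, with the builds GRCh37 (hg19) and dm3. How changes were called, on which strand and with which filter is not given in the sources used here.

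The 98665 intervals were summed over 12755 Ensembl ids, of which 12512 had a symbol. A gene was tested where its 18 values averaged at least 10 (10191 genes, with 99.8% of the summed value). limma 3.58.1 (trend and robust, R 4.3.3) was run on log2(value + 1), two-sided, over all 6 groups without covariates, with Benjamini-Hochberg adjustment at 0.05. Rescaling used median-of-ratios factors (0.168 to 3.21) over the 7799 tested genes above 0 in every library. Whole reads were recovered from the steps of the values, and 100% of values were whole within 0.01 of a read. On these reads edgeR 4.0.16 with ERCC offsets called 245, 2558 and 229 genes in total, nuclear and cytoplasmic RNA, against 309, 3453 and 397 by limma. edgeR with TMM factors called 3809, 3130 and 2987, DESeq2 1.42.0 called 4223, 4044 and 3625, and rescaled limma called 3112, 3123 and 3127. The fits were also run on simulated counts with known changes in JQ1-VHL nuclear RNA only. Those counts had no other group differences and no error in the scale factors, and no result here rests on them. Counting intervals and floors cover counting error only.

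The labels give replicate numbers as batches, which pair the treatments. Deviations of same-numbered libraries correlated at 0.22, 0.08 and 0.16 in total, 0.27, -0.14 and 0.29 in nuclear and 0.06, -0.05 and 0.02 in cytoplasmic RNA. The replicate block was therefore fitted as an alternative. Shares were compared by exact permutation over libraries and by exact sign flips of same-numbered pairs. Sequences are RefSeq (GRCh38.p14) and gene positions GENCODE 29.

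The 8 genes and all lists (AP-1, SRF, EGR, ATF and CREB, kinases, other immediate early mRNAs, luminal and other lineage markers) were chosen with earlier results of these data known. Apart from the cell markers, up to 2 called genes per list, direction and comparison with the largest change on the ERCC scale were named. After rescaling, only some such genes were named. SRF, NAB1, NAB2 and the JUN genes were named in any case. The 3 genes with the highest r were named for each tested gene. Alternatives were the other scalings, pseudocounts of 0.1 and 10, no filter, a mean of at least 50, the other tools, and each library left out.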

Additional observations from a re-analysis of the deposited data

How the results depend on the processing

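The calls moved with the scaling, the tool and the filter. The number of the 4 tested genes called in total RNA was 0 on the ERCC scale, 2 after rescaling, 1 with values per M reads, and 3 with edgeR TMM and with DESeq2. In nuclear RNA it was 1, against 3 after rescaling, 3 per M reads, 3 with DESeq2, 2 with TMM and 0 with a mean of at least 50, which drops FOSL2 and ATF3. In cytoplasmic RNA it was 2, against 1 with a pseudocount of 10, 1 with a mean of at least 50 and 1 with edgeR on ERCC offsets, and 3 with TMM, with DESeq2 and with the rescaled replicate block. For nuclear against cytoplasmic RNA it was 0 under JQ1-VHL, against 2 after rescaling, 2 per M reads, 2 with TMM and 2 with DESeq2. It was 0 under DMSO, against 3 per M reads, 2 with TMM and 2 with DESeq2. Apart from genes that the filter drops, the cause of these shifts was not tested. The rescaled replicate block called 3620 of all 10191 tested genes in cytoplasmic RNA. Shares of all genes called per M reads, with other pseudocounts or filters, or with a library left out are not given here. The numbers called in those settings are therefore a description only.

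With 1 library of the groups compared left out, the ERCC-scale number called was 0 in total RNA, 0 to 1 in nuclear and 1 to 2 in cytoplasmic RNA, 0 for the nuclear minus cytoplasmic effect, 0 for the compartments under JQ1-VHL and 0 to 1 under DMSO. After rescaling these were 0 to 2, 1 to 3, 2 to 3, 0, 0 to 1 and 0 to 2. The FOS share was 28.6 points higher under JQ1-VHL than under DMSO in total RNA, and 14.96 as a mean over intervals (32.3 in nuclear and 29.1 in cytoplasmic RNA); with a library left out it was 26.3 to 31.2 points higher there, 20.3 to 54.4 in nuclear and 37.1 to 57.3 in cytoplasmic RNA.

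ATF3 changed sign between settings in each fraction. Its change in total RNA was -0.19 on the ERCC scale, 0.10 after rescaling, 0.52 with TMM, 0.056 with ERCC offsets and 0.27 with DESeq2, and -0.59 to 0.46 with a library left out (rescaled, -0.42 to 0.86). In nuclear RNA it was 0.031 after rescaling and 0.039 with DESeq2 (rescaled, -0.34 to 0.43 with a library left out). In cytoplasmic RNA it was -0.34 per M reads and -0.028 to 0.68 with a library left out (rescaled, -0.47 to 0.90). For the nuclear minus the cytoplasmic effect, FOS was 0.77 after rescaling (-0.85 to 1.67 with a library left out) and 0.78 per M reads. FOSL2 was -0.97 with a pseudocount of 10 and -0.36 to 1.09 with a library left out. Rescaled with a library left out, EGR1 was -2.08 to 0.33 and ATF3 -0.89 to 0.49. Nuclear over cytoplasmic RNA under JQ1-VHL was 0.71 for EGR1 after rescaling, 1.95 per M reads, 0.67 with TMM and 0.73 with DESeq2. For ATF3 it was 0.14 (-0.27 to 0.53 with a library left out), 1.34, 0.042 and 0.086 in that order, and under DMSO -0.39 to 1.00 after rescaling with a library left out.

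The replicate block moved the rescaled FOS change in cytoplasmic RNA past the threshold (adjusted p = 0.0271) and changed no other call of the 4 genes. Leaving out a library of a group outside the comparison kept the sign and call status of 524 of 528 results and changed 4. Results that were not called are among the 528. On the ERCC scale such a library alters the shared spread only, not the estimate. Without DMSO cytoplasmic replicate 2 EGR1 was called in total RNA on the ERCC scale (adjusted p = 0.0346). Without DMSO nuclear replicate 1 rescaled FOS was called in total (adjusted p = 0.0146), making 3 genes, and in cytoplasmic RNA (adjusted p = 0.00625). Without DMSO nuclear replicate 3 it was called in cytoplasmic RNA (adjusted p = 0.0498). Few reads of FOSL1 and FOSL2 limit their values. The EGR1 share of EGR genes was not run, since EGR1 alone was in the table.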
